A study of Mus musculus with 24 samples.

Results

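Mitochondrial ribosomal proteins were read as the 78 rows of the expression table whose mouse gene symbol is Mrpl or Mrps followed by a number and at most 1 letter, 49 Mrpl genes and 29 Mrps genes of 54242 symbols in all. The members were chosen by symbol alone and not by any measured value. RNA-seq was available from 24 libraries of CGR8 cells, a mouse embryonic stem cell (ESC) line, in 8 groups of 3. Cells were transfected with a control siRNA (siControl, si-CTL here) or an siRNA against Rsl24d1 (siRSL24D1, si-Rsl24d1 here), a factor of cytosolic 60S ribosomal subunit assembly, and were either collected in serum with LIF (day 0), 72 h later by the protocol and earlier by the sample descriptions, or grown for 4 days with 10 nM retinoic acid (RA, day 4). The groups without rescue carried an empty_vector and received no doxycycline, whereas the rescue groups carried RSL24D1_OE, an siRNA-resistant Rsl24d1 transgene, and received doxycycline, so that vector and drug cannot be told apart. All 24 libraries came from 1 parental line. The study calls the 3 replicates behind its gene signatures biological, but nothing in the labels ties those of a group to separate experiments. The p-values thus measure the spread between these libraries, part of which may be technical.

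The mitochondrial ribosome translates the few messenger RNAs encoded by mitochondrial DNA, all of them for subunits of the oxidative phosphorylation complexes. Its ribosomal RNAs come from mitochondrial DNA, but every one of its proteins is encoded in the nucleus, made by cytosolic ribosomes and imported. Part of the proteins have bacterial counterparts and form the conserved core, and the others were added in mitochondria and cover the shortened ribosomal RNA. Symbols do not follow subunits in every case. Mrps18a and Mrps30 are proteins of the large subunit, and Mrps36 is known as a component of the 2-oxoglutarate dehydrogenase complex.

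Values were log2(TPM + 1), where TPM is a transcript's length-corrected share of a library. Counts were not analysed here and the depth is unknown. A gene passed the test when the Benjamini-Hochberg adjusted p of limma over 16447 genes was under 0.01, and it was called differentially expressed when it also changed by over 1.8-fold, that is 0.848 on the log2 scale. Fold changes on this scale understate the change of low genes. Between 23415 and 26428 symbols were above 0 in a library, and no 2 libraries held identical values. The targeted gene, Rsl24d1, lay at 7.10 to 7.22 in the 3 si-CTL libraries of day 0 and at 5.07 to 5.28 in the si-Rsl24d1 libraries without rescue. On day 4 without rescue it lay at 6.60 to 6.67 in the libraries labelled si-CTL and at 6.50 to 6.65 in those labelled si-Rsl24d1, a difference of -0.04 (adjusted p = 0.66), so the target does not check the siRNA labels of that day. The mean log2 level of 6 pluripotency markers was lower on day 4 than on day 0 in si-CTL libraries without rescue (7.32 to 7.41 against 7.81 to 7.91) and with rescue (7.31 to 7.50 against 7.63 to 7.76). In si-Rsl24d1 libraries it was higher on day 4 without rescue (7.36 to 7.54 against 7.29 to 7.35) and overlapped with rescue (7.39 to 7.53 against 7.42 to 7.52). In all 4 conditions the means of 4 RA response genes (2.05 to 2.62 against 1.19 to 1.4), 3 primitive endoderm markers (0.99 to 2.04 against 0.33 to 0.67) and 3 fibroblast markers (3.87 to 4.79 against 2.88 to 3.77) were higher on day 4. Within day 0 without rescue, the pluripotency markers were lower in si-Rsl24d1 than in si-CTL libraries (7.29 to 7.35 against 7.81 to 7.91), with no overlap. These libraries also differed, with no overlap, in the RA response genes (1.28 to 1.4 against 1.19 to 1.27), the primitive endoderm markers (0.54 to 0.67 against 0.33 to 0.42) and the fibroblast markers (3.12 to 3.21 against 3.53 to 3.77). The means of 3 neural markers overlapped (2.60 to 2.74 against 2.65 to 2.85). The part of the cell state in the results for ribosomal proteins was not tested, and in these bulk libraries fewer cells of a type and less RNA per cell cannot be told apart.

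Promoters of 6 members that were lower or higher with RA in all 4 conditions are shown first, chosen after their values were seen to show each kind of match and a window with none. They are not the 6 with the largest changes, and Mrps18b (an NRF1 and an ETS core) and Mrpl18 (an ETS core), with mean changes of -0.80 and -0.78 over the conditions, are not printed. RefSeq promoter windows of 300 bases (250 before and 50 after the annotated start, GRCm38.p6) matched 69 of the 78 members. A GABP-type ETS core, CCGGAAG, was found on either strand in 24 of the 69 windows (34.8%), against 12.3% of 16502 windows of protein-coding genes. An NRF1 core, GCGCANGCG, was found in 16 (23.2% against 9.20%), a YY1 core, AAGATGGC, in 12 (17.4% against 3.27%), and an E-box, CACGTG, in 5 (7.25% against 8.07%). NRF1 and GABP are known regulators of nuclear genes for mitochondrial proteins. The members' windows also held more CG dinucleotides, with a median of 21 against 14 over all windows. A match is a string of letters and not a measured site. In the windows below capitals mark the matches, and each window runs 5′ to 3′ on the gene's strand, with the annotated start after its first 250 bases.

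Mrpl34 (lower on day 4; chr8:71464676-71464975, plus strand; 1 ETS core, 37 bases before the start): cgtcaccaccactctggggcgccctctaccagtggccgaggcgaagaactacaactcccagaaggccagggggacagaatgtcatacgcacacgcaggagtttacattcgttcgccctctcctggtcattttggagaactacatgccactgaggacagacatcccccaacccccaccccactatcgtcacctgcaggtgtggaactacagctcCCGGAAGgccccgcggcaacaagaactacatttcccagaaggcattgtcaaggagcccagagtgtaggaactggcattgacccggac

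Mrpl20 (lower on day 4; chr4:155802628-155802927, plus strand; 1 E-box, 33 bases before the start): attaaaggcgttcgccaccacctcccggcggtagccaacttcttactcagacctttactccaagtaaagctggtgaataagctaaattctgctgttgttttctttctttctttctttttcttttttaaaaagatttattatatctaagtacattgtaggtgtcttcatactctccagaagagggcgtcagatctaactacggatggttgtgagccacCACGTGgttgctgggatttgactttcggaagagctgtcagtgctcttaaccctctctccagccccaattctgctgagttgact

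Mrps26 (lower on day 4; chr2:130563507-130563806, plus strand; an ETS core and 2 overlapping NRF1 cores at the start): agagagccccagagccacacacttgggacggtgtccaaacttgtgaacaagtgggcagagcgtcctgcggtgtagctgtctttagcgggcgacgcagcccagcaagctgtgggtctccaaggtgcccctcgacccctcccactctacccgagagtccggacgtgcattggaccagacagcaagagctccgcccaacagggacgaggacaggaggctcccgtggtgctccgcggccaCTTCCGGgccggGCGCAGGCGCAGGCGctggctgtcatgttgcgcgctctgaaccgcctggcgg

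Mrps11 (lower on day 4; chr7:78782881-78783180, plus strand; 1 YY1 core, 107 bases before the start): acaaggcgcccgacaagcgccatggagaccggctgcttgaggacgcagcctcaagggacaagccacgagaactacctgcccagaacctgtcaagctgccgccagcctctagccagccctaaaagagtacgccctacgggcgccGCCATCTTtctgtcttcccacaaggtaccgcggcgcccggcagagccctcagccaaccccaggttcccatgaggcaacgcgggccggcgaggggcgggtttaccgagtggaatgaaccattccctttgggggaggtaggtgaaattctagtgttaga

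Mrpl41 (higher on day 4; chr2:24975049-24975348, minus strand; no match): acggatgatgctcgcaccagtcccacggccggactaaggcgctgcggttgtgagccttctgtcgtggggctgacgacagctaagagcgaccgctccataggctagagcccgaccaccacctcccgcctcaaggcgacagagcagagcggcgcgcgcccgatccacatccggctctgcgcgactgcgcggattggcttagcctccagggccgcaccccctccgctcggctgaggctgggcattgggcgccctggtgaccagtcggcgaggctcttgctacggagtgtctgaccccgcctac

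Mrpl14 (higher on day 4; chr17:45686099-45686398, plus strand; 1 NRF1 core, 4 bases after the start): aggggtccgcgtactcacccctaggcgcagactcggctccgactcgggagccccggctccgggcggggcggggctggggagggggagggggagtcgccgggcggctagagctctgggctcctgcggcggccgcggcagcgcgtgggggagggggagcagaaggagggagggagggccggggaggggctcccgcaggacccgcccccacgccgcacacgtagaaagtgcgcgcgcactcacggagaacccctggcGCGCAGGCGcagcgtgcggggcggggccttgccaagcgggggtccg

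The Mrps11 window overlaps in part with that of another member, Mrpl46 (chr7:78783040-78783339), which held no match. By the RefSeq starts used here Mrpl46 starts 42 bases away on the opposite strand of chromosome 7, at 78783089 against 78783131 for Mrps11. The GENCODE gene start of Mrpl46 lies 442 bases from that RefSeq start, so the gap depends on the annotation. No other pair of the 69 members with a window started so near each other.

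The members were expressed at high levels with little spread between replicates. All 78 passed the filter on low values, a mean of at least 0.5 over the 24 libraries. Their median percentile of expression among all genes tested was 87.7, and their median SD within groups was 0.06 log2 units, against 0.11 over all genes tested. In si-CTL cells of day 0 without rescue the median member had 73.5 TPM (75.1 for Mrpl, 71.1 for Mrps). The 3 highest were Mrpl15 (278.0 TPM), Mrpl42 (254.5 TPM) and Mrpl52 (198.9 TPM), all of the large subunit. The 3 lowest were Mrpl23 (18.3 TPM), Mrpl41 (23.8 TPM) and Mrpl1 (29.8 TPM). The means of Mrpl15 and Mrpl42, 8.12 ± 0.02 and 7.99 ± 0.10 log2 units (SD, n = 3), lay about 1 SD of Mrpl42 apart, whereas those of Mrpl41 and Mrpl23, 4.63 ± 0.13 and 4.27 ± 0.12, lay further apart than either SD. Over the 8 groups the mean of a member varied by a median of 0.47 log2 units from the lowest to the highest group, and by over 1 unit in 7 members.

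Some rows cannot be assigned to their gene with certainty. Of the 31-base words in the protein-coding transcripts of Mrpl23, 53.0% also occurred in the pseudogene Mrpl23-ps1, whose row had the higher mean level over all libraries (7.06 against 4.40), so the split of reads between them is uncertain. Mrpl53 shared all its words with Gm42688, listed at a mean of 0.77. In all, 11 members shared over 20% of their words with 1 other gene, the others being Mrpl22, Mrpl27, Mrpl33, Mrpl41, Mrpl42, Mrps6, Mrps10, Mrps18b and Mrps36. Mrps34 overlaps Nme3 (mean level 5.06) and Mrps6 overlaps Slc5a3 (1.67) in exons of the same strand.

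**Figure D1:**
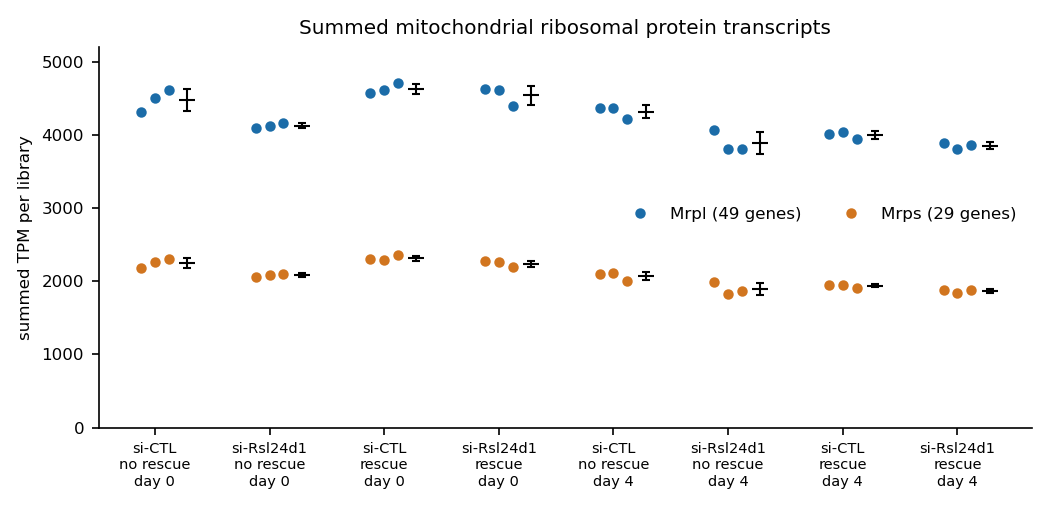
Summed TPM (y axis) of the 49 Mrpl genes (blue) and the 29 Mrps genes (orange) in each of the 24 libraries, in 8 groups along the x axis, with bars for the mean ± SD of 3 libraries. Both sums were lower in si-Rsl24d1 than in si-CTL libraries of day 0 without rescue (4092 to 4162 against 4319 to 4610 for Mrpl). In rescue libraries both were lower on day 4 than on day 0 (3803 to 4043 against 4389 to 4703 for Mrpl).

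Summed over the 78 members, transcripts of mitochondrial ribosomal proteins made up 0.673% of all TPM in si-CTL cells of day 0 and 0.621% after si-Rsl24d1. The si-CTL libraries held 6499, 6763 and 6916 TPM and the si-Rsl24d1 libraries 6144, 6208 and 6267, with no overlap. With rescue the corresponding ranges were 6872 to 7055 and 6583 to 6894, which overlapped. On day 4 the sums without rescue were 6216 to 6482 in si-CTL and 5632 to 6048 in si-Rsl24d1 cells, and with rescue 5857 to 5998 and 5644 to 5762. The ratio of Mrpl to Mrps TPM stayed between 1.98 and 2.04 in the 12 libraries of day 0 and between 2.04 and 2.10 in those of day 4, as the plot of summed TPM shows.

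Rsl24d1 depletion in ESCs was accompanied by lower transcripts of many mitochondrial ribosomal proteins of both subunits. At day 0 without rescue 33 of the 78 members fell and 3 rose, that is 42.3% lower against 16.1% of all genes tested, and 3.85% higher against 14.3%. The median change was -0.14 log2 units, against -0.01 over all genes tested. Among Mrpl genes 20 of 49 fell and 2 rose, and among Mrps genes 13 of 29 fell and 1 rose, with medians of -0.13 and -0.14. Of all genes tested 4.18% were called over 1.8-fold, and none of the members was.

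Conserved proteins of the large subunit led the members that fell. Mrpl14, which contacts the small subunit and receives an assembly factor during maturation, lay at 5.52, 5.61 and 5.70 in the si-CTL libraries and at 5.08, 5.07 and 5.25 in the si-Rsl24d1 libraries. It fell by 0.48 ± 0.06 (SE; adjusted p = 2.5e-06), to 71.2% of its control TPM, and its groups did not overlap. Mrpl4, another conserved protein of the large subunit, was at 6.46, 6.51 and 6.50 in control libraries and at 6.08, 6.06 and 6.14 after depletion. Its fall of 0.39 ± 0.04 (adjusted p = 3.0e-08) left 75.8% of the control TPM. Mrpl24, a protein at the exit of the peptide tunnel, fell by 0.34 ± 0.04, Mrps10 of the small subunit by 0.34 ± 0.04 and Mrpl12 of the stalk by 0.33 ± 0.04 (adjusted p = 5.0e-07, 1.6e-06 and 4.1e-07). The row of Mrpl23 fell by 0.55 ± 0.14 (adjusted p = 0.0038), and the sum of Mrpl23 and its pseudogene differed by -0.04 (adjusted p = 0.59). Most of that sum comes from the row of the pseudogene, so it can hardly show a fall of Mrpl23 itself. With the shared words the fall of the Mrpl23 row is uncertain.

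Of the 78 members 3 rose at day 0. Mrps6 of the small subunit went from 5.16, 5.23 and 5.38 to 5.47, 5.49 and 5.58 and rose by 0.26 ± 0.06 (adjusted p = 0.0017). Mrpl16, a core protein near the peptidyl transferase centre, rose by 0.24 ± 0.04 (adjusted p = 7.0e-05) and Mrpl51 by 0.15 ± 0.04 (adjusted p = 0.0094). The rises of Mrps6 and Mrpl51 did not pass after median of ratios scaling, a scaling that centres the libraries on their shared genes (adjusted p = 0.016 and 0.078). Under that scaling 23 members fell and 2 rose. Shares of all genes are given here without that scaling only, so counts of members after it have no such share beside them. In the fit of the 2 groups alone 22 members passed instead of 36.

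**Figure D2:**
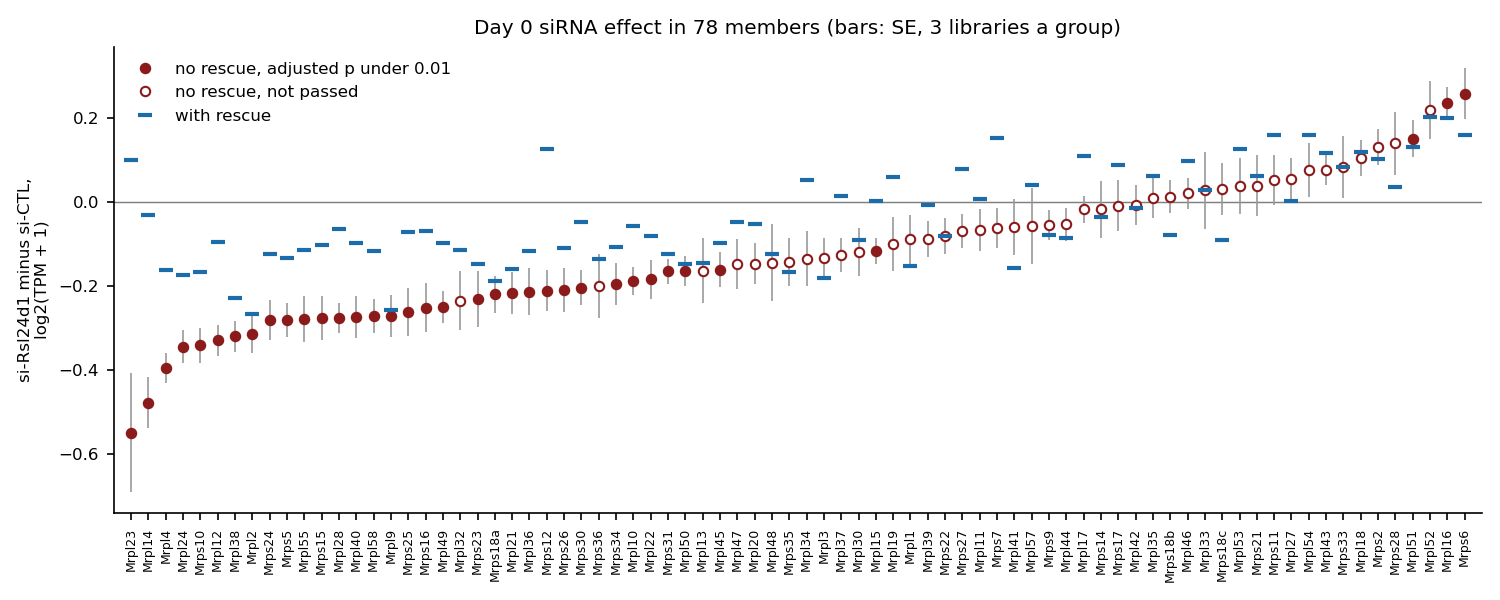
Difference between si-Rsl24d1 and si-CTL at day 0 (y axis, log2(TPM + 1)) for the 78 members ordered by their value without rescue (x axis). Red circles with SE bars are the comparison without rescue, filled where the adjusted p was under 0.01, and blue dashes the comparison with rescue, in which most members that fell lie nearer to 0.

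By role, the stalk proteins that recruit translation factors fell in 2 of 3 cases at day 0 (Mrpl10 -0.19, Mrpl12 -0.33, and Mrpl11 -0.07, which did not pass). Among proteins around the peptide exit 4 of 7 fell (2 of 7 after median of ratios scaling), and among those of the central protuberance 2 of 6. Of the large subunit proteins with bacterial counterparts 14 of 30 fell and 1 rose, and of those specific to mitochondria 8 of 21 fell and 1 rose. In the small subunit the corresponding counts were 6 of 16 lower and 1 higher, and 5 of 10 lower and none higher. Beside these, 33 of all 78 members were lower and 3 higher, and 16.1% of all genes tested were lower and 14.3% higher. No difference between the classes was tested. Of the Mrps18 paralogues, which sit in different places of the ribosome, Mrps18a fell by 0.22 ± 0.04 (adjusted p = 0.00047), although none of the 3 passed after median of ratios scaling. Mrps18b and Mrps18c were at differences of 0.01 and 0.03 and did not pass.

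Expression of the siRNA-resistant transgene was accompanied by a smaller siRNA effect. The rescue of Rsl24d1 itself was partial. With rescue it was still lower in si-Rsl24d1 than in si-CTL cells of day 0 (-0.50 ± 0.07, adjusted p = 2.2e-05), against -1.955 without rescue. Between rescue and no rescue it was higher by 1.55 in si-Rsl24d1 cells, and by 0.10 in si-CTL cells, which did not pass (adjusted p = 0.29). With rescue 10 members were lower in si-Rsl24d1 than in si-CTL cells and 1 was higher (12.8% against 5.64% of all genes for lower, 1.28% against 8.10% for higher), with a median of -0.07. The libraries of the comparison with rescue are other than those of the comparison without. Of the 33 members that fell without rescue, 30 had the same sign with rescue and 9 passed again, and their median change was -0.26 without and -0.11 with rescue. Over all 2651 genes that fell without rescue the corresponding medians were -0.37 and -0.18, with 2552 of the same sign and 860 passing again. Both sets were chosen by passing without rescue, which makes their medians there larger in size, so these medians do not measure the rescue alone. The largest effects left with rescue were those of Mrpl2 (-0.27 ± 0.05), Mrpl9 (-0.26 ± 0.05), Mrpl38 (-0.23 ± 0.04), Mrps18a (-0.19 ± 0.04) and Mrpl3 (-0.18 ± 0.05), and Mrpl16 again rose (0.20 ± 0.04). Mrps18a and Mrpl16 did not pass after median of ratios scaling.

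Within si-Rsl24d1 cells of day 0 the rescue was accompanied by more of these transcripts. Of the members 19 were higher and 1 was lower with rescue (24.4% higher against 3.06% of all genes, 1.28% lower against 12.2%), with a median of 0.11 against -0.11 over all genes. Apart from Mrpl23 (0.62 ± 0.14; 0.11 when summed with its pseudogene, adjusted p = 0.14), the largest rises were those of Mrpl14 (0.46 ± 0.06), Mrps12, a protein of the decoding centre (0.40 ± 0.05), Mrpl34 (0.27 ± 0.07) and Mrpl40 (0.26 ± 0.05). Mrps2 was the member that fell (-0.19 ± 0.04), and it did not pass after median of ratios scaling, where 30 members rose and none fell. Only 3 members passed in the fit of these 2 groups alone, and between 8 and 25 passed when 1 library was left out. Across genes the rescue effect moved with transcript length, with a Spearman correlation of -0.50 between fold change and length over 13553 genes and of -0.31 over the members, whose median transcript is shorter (1328 against 3048 bases). The part of length in the result was not tested.

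In si-CTL cells of day 0 no member passed between rescue and no rescue by limma. Of all genes tested 0% passed as higher and 0.0122% as lower. An unadjusted limma p under 0.05 was found in 20 of 78 members. The share of all genes under that unadjusted p was not computed, so this count is not a result about the members. The median of the members was 0.02, against -0.12 over all genes, and after median of ratios scaling it was 0.17 with again no member passing. Here too fold change and transcript length had a Spearman correlation, of -0.60 over all genes and -0.42 over the members, and the part of length was not tested. The test of the interaction, whether the siRNA effect itself differed between rescue and no rescue, passed in 4 members, all with a higher value of the siRNA effect in rescue cells (5.13% against 0.906% of all genes higher, and 0% against 1.18% lower). These were Mrpl14 (0.45 ± 0.09, adjusted p = 0.0039), Mrps12 (0.34 ± 0.07, adjusted p = 0.0062), Mrpl4 (0.23 ± 0.05, adjusted p = 0.0098) and Mrpl12 (0.23 ± 0.05, adjusted p = 0.00997). None of them passed after median of ratios scaling.

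RA treatment for 4 days without LIF was accompanied by changes of mitochondrial ribosomal proteins in both directions, and more of them fell than rose. In si-CTL cells without rescue 33 members were lower and 19 higher on day 4 than on day 0 (42.3% against 36.7% of all genes lower, 24.4% against 24.1% higher), shares close to those of all genes tested. In si-Rsl24d1 cells without rescue 33 were lower and 16 higher (42.3% against 26.4%, 20.5% against 29.4%). With rescue 42 were lower and 11 higher in si-CTL cells (53.8% against 22.4%, 14.1% against 36.8%), and 46 lower and 8 higher in si-Rsl24d1 cells (59.0% against 25.8%, 10.3% against 32.4%). The medians were -0.09, -0.10, -0.21 and -0.22 in this order, against -0.10, 0.02, 0.12 and 0.06 over all genes. In si-CTL cells without rescue the direction of the list depended on the scaling, since after median of ratios scaling 20 members were lower and 24 higher, with a median of 0.05. In rescued si-CTL cells that scaling gave 52 lower and 2 higher. The shares of all genes above are without that scaling.

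The 4 conditions share no libraries, so a member can be followed across them. Lower in all 4 were 23 members, 16 Mrpl and 7 Mrps, that is 23 of 78 against 14.8% of all genes tested, and higher in all 4 were 6, 5 Mrpl and 1 Mrps, against 16.8% of all genes. Under median of ratios scaling 18 of the 23 and 2 of the 6 (Mrpl24 and Mrpl41) kept their place. Passing in none of the conditions were 7 members (Mrpl1, Mrpl3, Mrpl42, Mrps5, Mrps9, Mrps15 and Mrps22), and 4 passed in opposite directions in different conditions (Mrpl2, Mrpl17, Mrpl38 and Mrpl54).

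**Figure D3:**
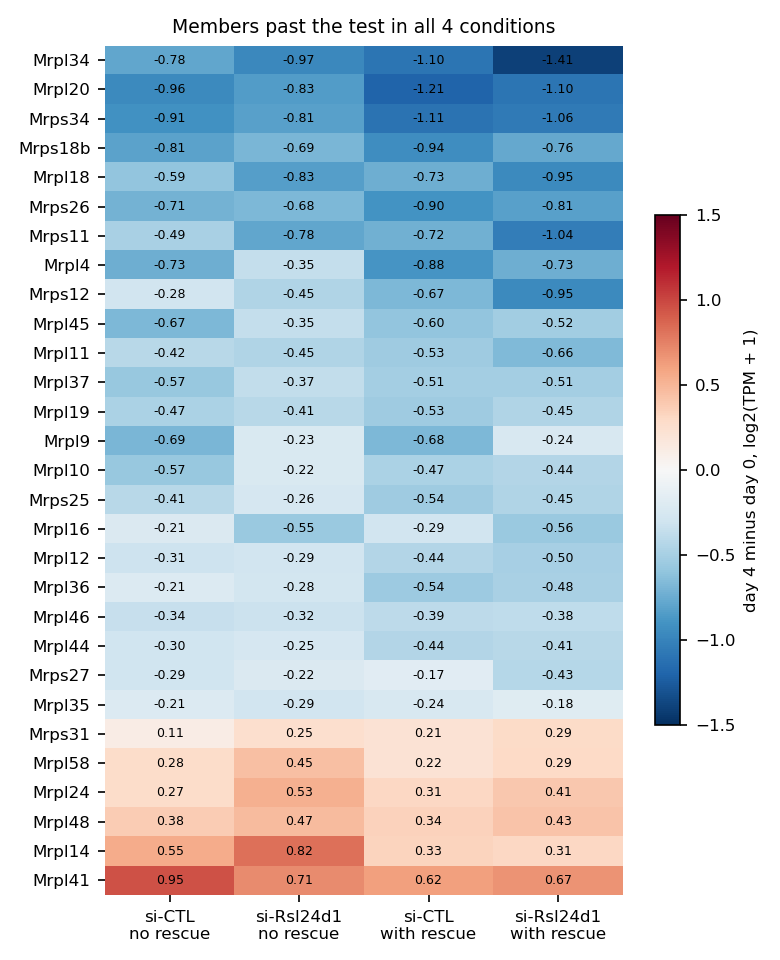
Difference between day 4 and day 0 (colour and printed value, log2(TPM + 1)) in 4 conditions (columns) for the 29 members (rows) that passed in the same direction in all 4, ordered by their mean. Mrpl34 is lowest, from -0.78 to -1.41, and Mrpl41 highest, from 0.62 to 0.95.

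Mrpl34, a small core protein of the large subunit, had the lowest mean change over the 4 conditions. It lay at 7.21, 7.35 and 7.32 in si-CTL cells of day 0 and at 6.60, 6.43 and 6.50 on day 4, a fall of 0.78 ± 0.07 (adjusted p = 2.2e-09). In rescued si-Rsl24d1 cells it went from 7.54, 7.45 and 7.29 to 6.11, 6.03 and 5.92, a fall of 1.41 ± 0.07 (adjusted p = 3.3e-13) to 37.3% of the day 0 TPM. All day 4 libraries lay below all day 0 libraries.

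Mrpl20, also of the large subunit core, went in si-CTL cells from 7.18, 7.31 and 7.33 to 6.29, 6.37 and 6.28. It fell by 0.96 ± 0.05 (adjusted p = 1.2e-12), to 51.1% of its TPM, and in rescued si-CTL cells by 1.21 ± 0.05, to 43.0%. Mrps34, a protein of the small subunit specific to mitochondria, fell by 0.91 ± 0.05, to 52.3%, and by 0.81 to 1.11 in the other conditions. Its row overlaps Nme3 on the same strand. Mrps18b fell by 0.69 to 0.94, and Mrps26, another small subunit protein without a bacterial counterpart, by 0.68 to 0.90.

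Mrpl4, which also fell with the siRNA on day 0, fell on day 4 from a level that already differed. In si-CTL cells it went from 6.46, 6.51 and 6.50 to 5.76, 5.74 and 5.77, a fall of 0.73 ± 0.04 (adjusted p = 9.1e-13). In si-Rsl24d1 cells it went from 6.08, 6.06 and 6.14 to 5.79, 5.72 and 5.72, a fall of 0.35 ± 0.04 (adjusted p = 4.8e-08). Both siRNA groups of day 4 overlapped, as the plot of members by library shows.

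Mrps11 and Mrpl46, the pair whose RefSeq starts lie 42 bases apart, were both lower in all 4 conditions. Mrps11 fell by 0.49, 0.78, 0.72 and 1.04 and Mrpl46 by 0.34, 0.32, 0.39 and 0.38, in the order of the plot of changes. Mrpl18 of the central protuberance fell by 0.59 to 0.95. Mrps12 fell by 0.28 ± 0.05 in si-CTL cells and by 0.95 ± 0.05 in rescued si-Rsl24d1 cells, where its libraries went from 6.55, 6.52 and 6.48 to 5.59, 5.53 and 5.57.

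Called over 1.8-fold with RA were Mrpl20 and Mrps34 (lower) and Mrpl41 (higher) in si-CTL cells, against 8.24% and 6.77% of all genes called lower and higher. Mrpl34 alone was called in unrescued si-Rsl24d1 cells (6.22% lower and 7.93% higher over all genes). With rescue, 6 members were called lower in si-CTL cells (Mrpl20, Mrps34, Mrpl34, Mrps18b, Mrps26 and Mrpl4; 4.82% of all genes, with 10.7% higher) and 6 in si-Rsl24d1 cells (Mrpl34, Mrpl20, Mrps34, Mrps11, Mrpl18 and Mrps12; 5.57%, with 9.34% higher). After median of ratios scaling no member was called lower and 1 higher in si-CTL cells without rescue, where Mrpl20 and Mrps34 thus lost their calls, 3 were called lower in unrescued si-Rsl24d1 cells, and 8 in each of the rescued conditions.

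Of the 6 members higher in all 4 conditions, Mrpl41, a large subunit protein specific to mitochondria, had the highest mean change, although Mrpl14 rose more in si-Rsl24d1 cells without rescue. Mrpl41 was at 4.47, 4.69 and 4.71 in si-CTL cells of day 0 and at 5.60, 5.57 and 5.57 on day 4, a rise of 0.95 ± 0.07 (adjusted p = 1.8e-10) to 197% of the day 0 TPM, and it rose by 0.62 to 0.71 in the other conditions. Mrpl14 rose from 5.52, 5.61 and 5.70 to 6.21, 6.17 and 6.11 in si-CTL cells (0.55 ± 0.06) and from 5.08, 5.07 and 5.25 to 5.99, 5.95 and 5.93 in si-Rsl24d1 cells (0.82 ± 0.06). Mrpl48 of the central protuberance rose by 0.34 to 0.47, Mrpl24 by 0.27 to 0.53, Mrpl58, a peptidyl-tRNA hydrolase built into the ribosome, by 0.22 to 0.45, and Mrps31 by 0.11 to 0.29. In si-CTL cells without rescue Mrps6 rose by 0.47 ± 0.06 and Mrps28 by 0.42 ± 0.07. Mrpl14, Mrpl23 and Mrpl48 did not pass after median of ratios scaling in rescued si-CTL cells, nor did Mrpl14 in rescued si-Rsl24d1 cells. Mrpl58 and Mrps31 did not pass in all 4 conditions under that scaling either, and of the 6 only Mrpl24 and Mrpl41 did. The Mrpl23 row rose by 0.56 to 0.84 in 3 conditions, and its sum with the pseudogene by 0.77 to 1.16. In rescued si-Rsl24d1 cells the row did not pass (0.13, adjusted p = 0.45). There the sum still went from 6.95, 6.83 and 6.78 to 7.64, 7.55 and 7.65, and it is mostly the pseudogene.

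**Figure D4:**
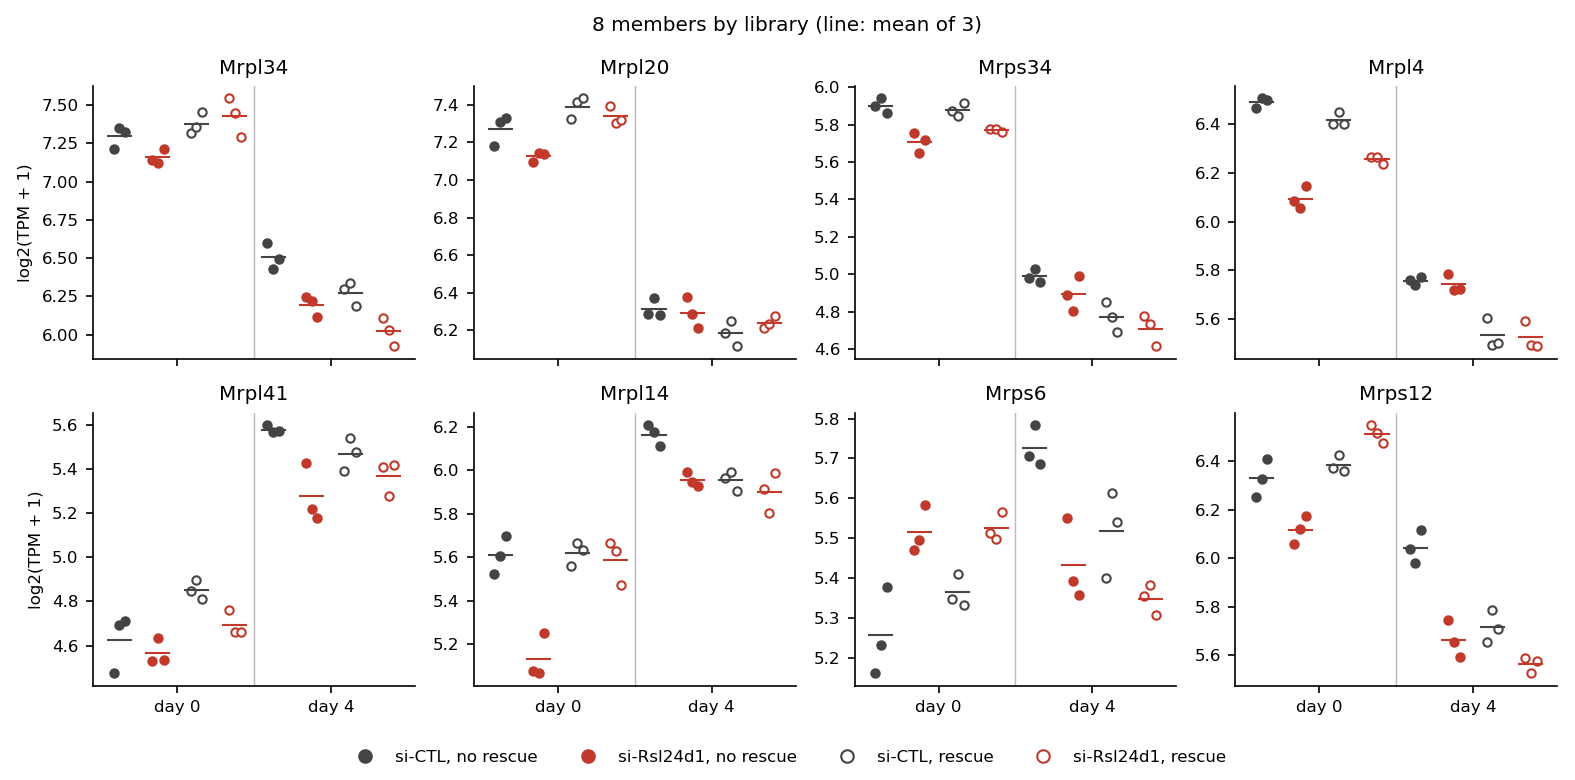
Level of 8 members (one panel each, y axis log2(TPM + 1), with its own range and not starting at 0) in the 24 libraries, day 0 left and day 4 right of the grey line. Grey is si-CTL and red si-Rsl24d1, open circles are rescue libraries and lines are means of 3. Mrpl34, Mrpl20, Mrps34 and Mrpl4 are lower in every day 4 library than in any day 0 library, and Mrpl41 is higher.

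By place in the ribosome, all 3 stalk proteins were lower in all 4 conditions (2 of 3 in si-CTL cells without rescue after median of ratios scaling), Mrpl10 by 0.22 to 0.57, Mrpl11 by 0.42 to 0.66 and Mrpl12 by 0.29 to 0.50. Mitochondria-specific proteins of the small subunit were lower in 5 to 7 of 10 cases and higher in 1. Of the 16 small subunit proteins with bacterial counterparts, 5 were lower and 3 higher (Mrps6, Mrps24 and Mrps28) in si-CTL cells, 7 and 2 in si-Rsl24d1 cells, 6 and 0 in rescued si-CTL cells and 9 and 1 in rescued si-Rsl24d1 cells, beside 36.7%, 26.4%, 22.4% and 25.8% of all genes lower. Of the proteins at the peptide exit, Mrpl44 and Mrpl45 were lower and Mrpl24 was higher in all 4. The Mrps18 paralogues again differed, with Mrps18b lower in all 4 conditions, Mrps18c in 3 (-0.24 to -0.50, and -0.09 in si-CTL cells without rescue, which did not pass) and Mrps18a in rescued si-CTL cells alone (-0.23 ± 0.04).

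On day 4, libraries labelled si-Rsl24d1 again had fewer of these transcripts than those labelled si-CTL, although the difference in the targeted gene did not pass. Without rescue 25 members were lower and 4 higher (32.1% against 6.04% of all genes lower, 5.13% against 24.9% higher). Their median was -0.10, against 0.13 over all genes. After median of ratios scaling, which moves the all-gene median to 0.00, 49 were lower and none higher. These 2 counts are not to be set beside the shares of all genes above, which are without that scaling. Fold change and transcript length had a Spearman correlation of 0.53 over all genes and 0.40 over the members, with medians of -0.21 in the shorter and -0.06 in the longer 39 members. The part of length in the result was not tested. The lowest were Mrps36 (-0.41 ± 0.08), Mrps12 (-0.38 ± 0.05), Mrps21 (-0.33 ± 0.07), Mrps17 (-0.32 ± 0.06) and Mrpl34 (-0.32 ± 0.07), and the 4 that were higher were Mrpl50 (0.24 ± 0.04), Mrpl9 (0.18 ± 0.05), Mrpl10 (0.16 ± 0.03) and Mrpl45 (0.16 ± 0.04). None of these 4 passed after median of ratios scaling. In the fit of the 2 groups alone 4 members passed instead of 29. Between these groups the mean log2 level of the RA response genes was higher in si-Rsl24d1 than in si-CTL libraries (2.51 to 2.62 against 2.05 to 2.20). So were those of the primitive endoderm (1.61 to 2.04 against 0.99 to 1.24), fibroblast (4.42 to 4.79 against 3.87 to 4.17) and neural markers (2.78 to 3.07 against 2.62 to 2.74). The pluripotency markers overlapped (7.36 to 7.54 against 7.32 to 7.41). The part of these markers in the result was not tested.

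The members affected on both days were in part different ones. Of 17 that passed at both days without rescue, 11 were lower at both, among them Mrpl12 (-0.33 and -0.31), Mrpl14 (-0.48 and -0.21) and Mrps12 (-0.21 and -0.38). The other 6 changed in opposite directions. Mrpl9, Mrpl10, Mrpl45 and Mrpl50 were lower at day 0 and higher at day 4, and Mrps6 and Mrpl51 the reverse. After median of ratios scaling none of these 6 passed on both days, since the day 4 rises of the first 4 and the day 0 rises of the other two were lost. The test of the difference between the days passed in 22 members, 11 in each direction (14.1% higher against 22.1% of all genes, 14.1% lower against 8.83%), and after median of ratios scaling in 3 with a higher and 14 with a lower value at day 4.

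Mrpl9, a conserved large subunit protein, showed the largest positive difference. It lay at 5.77, 5.71 and 5.76 in si-CTL and 5.43, 5.51 and 5.49 in si-Rsl24d1 cells of day 0, and at 4.97, 5.17 and 5.04 against 5.18, 5.24 and 5.31 on day 4. Neither pair of groups overlapped, and the difference between the days was 0.46 ± 0.07 (adjusted p = 5.0e-05). It was followed by Mrpl50 (0.40 ± 0.05), Mrpl4 (0.38 ± 0.05), Mrpl10 (0.35 ± 0.05) and Mrpl38 (0.32 ± 0.05). The largest negative value was that of Mrps6 (-0.55 ± 0.09, adjusted p = 4.3e-05), which lay at 5.71, 5.78 and 5.69 in si-CTL and 5.55, 5.39 and 5.36 in si-Rsl24d1 cells of day 4. Then came Mrpl52 (-0.48 ± 0.10), Mrps21 (-0.37 ± 0.10), Mrpl16 (-0.34 ± 0.06) and Mrpl54 (-0.34 ± 0.09).

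**Figure D5:**
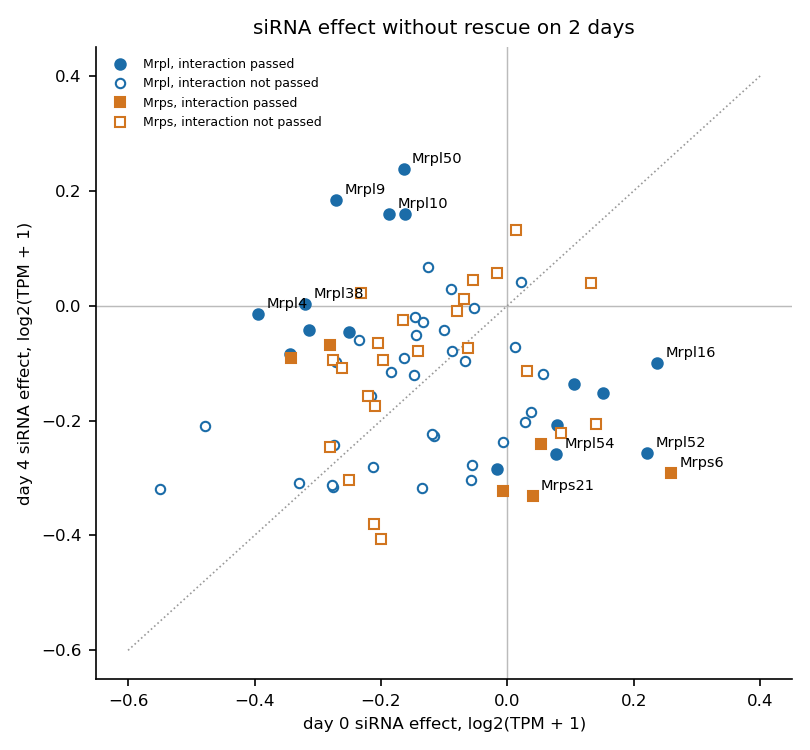
siRNA effect without rescue in the 78 members at day 0 (x axis) and day 4 (y axis), both as si-Rsl24d1 minus si-CTL in log2(TPM + 1), with Mrpl as circles and Mrps as squares, filled where the difference between the days passed, and equal values along the dotted line. Mrpl9 and Mrpl50 lie upper left (lower at day 0, higher at day 4), and Mrps6 and Mrpl52 lower right.

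With rescue the siRNA effect on day 4 was small. Of the members 4 were lower and none higher (5.13% against 3.53% of all genes lower, 0% against 2.33% higher), namely Mrps36 (-0.32 ± 0.08), Mrpl28 (-0.22 ± 0.04), Mrps27 (-0.18 ± 0.04) and Mrpl12 (-0.15 ± 0.04). After median of ratios scaling none of these passed and 1 other member was higher. Of the 25 members lower without rescue, 23 had the same sign with rescue and 3 passed again (Mrpl12, Mrpl28 and Mrps36). Of all 993 genes lower without rescue, 894 had the same sign and 259 passed again, so keeping the sign was not particular to the members. Between rescue and no rescue on day 4, 3 members were lower in libraries labelled si-Rsl24d1 (3.85% against 4.23% of all genes, and 0% against 0.936% higher), Mrpl4 (-0.22 ± 0.04), Mrpl10 (-0.20 ± 0.03) and Mrps27 (-0.17 ± 0.04), and none after median of ratios scaling. In si-CTL cells 9 were lower and none higher (11.5% against 1.34% and 0% against 8.85%), led by Mrps12 (-0.33 ± 0.05), Mrpl52 (-0.28 ± 0.07), Mrps26 (-0.25 ± 0.05), Mrpl43 (-0.24 ± 0.04) and Mrpl4 (-0.22 ± 0.04), in a comparison whose fold changes had a Spearman correlation of 0.65 with transcript length over all genes and 0.52 over the members. The part of length was not tested there either.

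Of the 5 mitochondrial ribosomal proteins with other symbols, Dap3, a GTP-binding protein of the small subunit, lay at 6.87, 6.85 and 6.88 in si-CTL and 6.43, 6.48 and 6.35 in si-Rsl24d1 cells of day 0 and fell by 0.45, with Aurkaip1 falling by 0.30. Chchd1, Gadd45gip1 and Ptcd3 did not pass (0.00, 0.00 and -0.10). With RA in si-CTL cells Dap3 and Chchd1 rose (0.27 and 0.37), whereas Ptcd3, which sits where messenger RNA enters, Gadd45gip1 and Aurkaip1 fell (-0.64, -0.29 and -0.18). Dap3 rose and Ptcd3 and Gadd45gip1 fell in all 4 conditions.

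The factors that build and serve the mitochondrial ribosome were listed by function. Of 28 assembly factors 12 fell and 1 rose with si-Rsl24d1 at day 0 without rescue, led by Ngrn (-0.42), Mtg1 (-0.37) and Mettl17 (-0.34), with Mterf3 rising (0.35). With RA 19 fell and 6 rose in si-CTL cells. Rbfa and Noa1, which act on the small subunit, fell by 0.98 and 0.92 and the rRNA methyltransferase Nsun4 by 0.65, whereas Mettl15 rose by 1.01, Malsu1, the partner of Mrpl14, by 0.70 and Mtg1 by 0.38. Of 15 mitochondrial translation factors 4 fell at day 0, led by Guf1 (-0.60), the elongation factor Tufm (-0.40) and Gfm2 (-0.33). With RA 7 fell in si-CTL cells and 1 rose, with Tufm at -0.94, Lrpprc at -0.87, Gfm2 at -0.86 and Oxa1l at 0.32. Of 6 genes of mitochondrial transcription Mterf1a fell at day 0 (-0.39), and Polrmt, the mitochondrial RNA polymerase, Mterf1a and Tfb2m fell with RA (-0.89, -0.77 and -0.46) while Tefm rose (0.46). Of 8 nuclear regulators tested 3 fell at day 0 (Ppargc1b -0.60, Myc -0.54 and Nrf1 -0.31) and 1 rose (Gabpb1, 0.22). With RA 7 fell, led by Myc (-2.86), Pprc1 (-1.0) and Nrf1 (-0.68). Beside these counts, 16.1% of all genes tested were lower and 14.3% higher with si-Rsl24d1 at day 0 without rescue. With RA in si-CTL cells without rescue 36.7% were lower and 24.1% higher. The counts of these lists are without median of ratios scaling, and whether the lists differ from all genes was not tested.

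Related families are given beside these values. Of 82 cytosolic ribosomal proteins 12 rose and 5 fell with si-Rsl24d1 at day 0 without rescue, with a median of 0.12, and 59 rose and 5 fell with RA in si-CTL cells, with a median of 0.33. Of 76 nuclear-encoded subunits of oxidative phosphorylation 3 rose and 17 fell with the siRNA, with a median of -0.08, and 29 rose and 13 fell with RA, with a median of 0.10. After median of ratios scaling the cytosolic list had 1 higher and 2 lower at day 0, and 62 higher and 1 lower with RA. Over all genes tested 14.3% were higher and 16.1% lower with the siRNA, and 24.1% higher and 36.7% lower with RA, before that scaling. No test of the difference between families was made. Transcripts of the mitochondrial genome, the templates of the mitochondrial ribosome, made up 6.90 to 7.51% of TPM in si-CTL and 7.28 to 7.71% in si-Rsl24d1 cells of day 0, ranges that overlapped. On day 4 they made up 6.42 to 6.81% in si-CTL and 7.01 to 8.57% in si-Rsl24d1 cells without rescue, and 7.86 to 9.36% and 8.79 to 9.29% with rescue.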

How the data were processed

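The members, gene lists and tests were chosen with earlier results of these data known. RNA of 24 libraries was sequenced on an Illumina platform. The authors quantified transcripts with Salmon against GENCODE mouse transcripts and aligned reads with STAR for quality control, and deposited 1 table of log2 values, log2(TPM + 1). The submitters' processing notes name Salmon 1.4.0 and STAR 2.7.8a, and name a human build where the study's methods give GRCm38. The labels and the methods also differ on whether the libraries were poly-A selected or made from total RNA. Counts were not analysed here, so depth is unknown, and TPM is relative within a library. Every one of the 24 columns was matched to a sample.

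Group means were fitted to all 8 groups with limma 3.58.1 in R 4.3.3 (variance trend, genes with a mean of at least 0.5, 16447 genes, Benjamini-Hochberg adjustment in each comparison), after tests on simulated data. Named for each comparison were up to 5 members in each direction with the largest change among those that passed and whose libraries did not overlap, every member called over 1.8-fold, in the interactions up to 5 that passed in each direction, the 3 highest and lowest, the role lists, and of other lists up to 3 genes in each direction. Alternatives were 0.1 or 2 added to TPM, no filter or a mean of 1.5, fits of only the groups compared, median of ratios scaling, a block for the replicate number, and leaving out each library. The sum of Mrpl23 and Mrpl23-ps1 was added after seeing the data. Promoters are RefSeq's, transcript lengths and shared 31-base words those of GENCODE vM21.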

Additional observations from a re-analysis of the deposited data

Results flagged for a closer look

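The siRNA effect without rescue differed between day 0 and day 4 by a test of the difference itself in 22 members, of which the 10 with the largest values are given here. On the log2(TPM + 1) scale the effect of si-Rsl24d1 was higher on day 4 than on day 0 by 0.455 in Mrpl9, 0.402 in Mrpl50, 0.38 in Mrpl4, 0.346 in Mrpl10 and 0.322 in Mrpl38. For Mrps6 the difference was -0.551, for Mrpl52 -0.477, for Mrps21 -0.371, for Mrpl16 -0.337 and for Mrpl54 -0.335. The adjusted p of limma lay between 4.6e-06 (Mrpl50) and 0.00708 (Mrps21). Mrpl4 and Mrpl38 did not pass after median of ratios scaling (adjusted p = 0.027 and 0.076). Over all genes tested 22.1% were higher and 8.83% lower in this test.

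The siRNA effect at day 0 differed between rescue and no rescue in 4 members, with values of 0.447 in Mrpl14, 0.338 in Mrps12, 0.235 in Mrpl12 and 0.234 in Mrpl4. Their adjusted p lay between 0.00394 and 0.00997 and was over 0.01 for all 4 after median of ratios scaling (0.039 to 0.13). Groups of 3 libraries are too small for a test of single outlying libraries.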

How the results depend on the processing

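The number of members that passed kept within 1.5 times its value under 0.1 or 2 added to TPM, no filter, the stricter filter, the replicate block and median of ratios scaling for the siRNA effect at day 0 without rescue, all 4 comparisons of day 4 with day 0 and the siRNA-by-day test. Median of ratios scaling changed it from 11 to 6 for the siRNA effect at day 0 with rescue, from 29 to 49 at day 4 without and from 4 to 1 with rescue. For the rescue effect of day 4 that scaling changed it from 3 to 0 in si-Rsl24d1 and from 9 to 22 in si-CTL cells, and for the siRNA-by-rescue test from 4 to 0. Fits of only the groups compared, which have fewer libraries to estimate the spread, gave 22 instead of 36, 1 instead of 11, 3 instead of 20, 4 instead of 29, 0 instead of 4, 0 instead of 3, 3 instead of 9, and 0 instead of 4 in the siRNA effects and rescue effects of day 0, those of day 4 and the siRNA-by-rescue test. With no filter 2 passed for the siRNA effect at day 4 with rescue, 5 for the rescue effect in si-CTL cells of day 4 and 1 in the siRNA-by-rescue test, where 0.1 added to TPM gave 2. Beyond fewer libraries in the small fits, the cause was not tested.

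Leaving out 1 library gave 26 to 31 members for the siRNA effect at day 0 without and 4 to 7 with rescue, 8 to 25 for the rescue effect in si-Rsl24d1 and 0 in si-CTL cells of day 0, 20 to 37 for the siRNA effect at day 4 without and 1 to 4 with rescue, 2 to 5 and 2 to 7 for the rescue effects of day 4 in si-Rsl24d1 and si-CTL cells, 45 to 52, 47 to 53, 48 to 51 and 46 to 52 for day 4 against day 0, 16 to 29 for the siRNA-by-day and 0 to 3 for the siRNA-by-rescue test. The libraries whose absence moved the count by over 1.5 times were any of the rescue libraries of day 0 for the siRNA effect with rescue, si-Rsl24d1 replicates 1 and 2 without and with rescue for the rescue effect at day 0 (8, 13, 8 and 8), and for the rescue effect in si-CTL cells of day 4 si-CTL replicates 1 and 2 without and 1 and 3 with rescue (2, 4, 5 and 4). For the siRNA effect at day 4 with rescue they were si-CTL replicates 2 and 3 and si-Rsl24d1 replicates 2 and 3 (1, 1, 1 and 2), and for the rescue effect in si-Rsl24d1 cells of day 4 replicate 1 without rescue (5). For the siRNA-by-rescue test they were 11 of the 12 libraries of day 0, si-CTL replicate 1 without rescue being the exception.

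Same-numbered libraries did not deviate together (mean correlation -0.02 over 84 pairs, over 0.1 in 4), so the numbers were not taken as pairs. With the replicate number as a block 2 instead of 4 members passed for the siRNA effect at day 4 with rescue and 1 instead of 4 in the siRNA-by-rescue test. Of 97 values of named members, 9 did not pass under the block, 26 after median of ratios scaling, 34 in the fits of only the groups compared, 12 without a filter and 3 with 0.1 added, and none changed direction under any alternative.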
